A study of Zea mays with 18 samples.

Results

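The 73 gene models described here were abundant in primary roots and shoots of maize seedlings and low in the first leaf. They were found among 43484 gene models (Zm00001d identifiers) in a table of RPKM values, that is, read numbers divided by feature length and by library size. The rule asked for at least 50 RPKM in both control roots and control shoots. After 1 was added to each value, both organs also had to stand at least 16 times above control leaves. The control values therefore chose the gene models and are given below as a description only. The EBL columns were not used by the rule. A comparison of EBL with control columns shares the control values with it.

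Seedlings of the inbred line B73 were germinated for 3 days in the dark and grown for 48 h in nutrient solution. In 3 groups the solution held 1 nM epibrassinolide (EBL), a brassinosteroid hormone: EBL roots, EBL shoots and EBL leaves. The other 3 groups were control roots, control shoots and control leaves. The sources used here do not give what the control solution held in place of the hormone. Roots were primary roots, shoots were the stem, apex and coleoptile together, and leaves were the first leaf. Each group had 3 biological replicates, 18 samples in all, but the table gives 1 value per group, as the authors made it. No value therefore has a replicate error, no test could be run, and the depth behind a value is unknown. The samples are whole organs, so fewer cells of a type and less RNA per cell cannot be told apart.

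Brassinosteroids are perceived at the cell surface and act through transcription factors that promote cell elongation. Primary roots and young shoots hold apical meristems and elongating axes that live on imported sugar, whereas an expanded leaf blade is built for photosynthesis. Genes for cell division, wall building and other work of growing tissue are therefore commonly more active in both axes than in a leaf. How far the first leaf of these seedlings had expanded was not examined. None of the 73 identifiers (0 of 73) matched the RefSeq gene table, so each one is named by its identifier and no role is attached to any of them. For the same reason the 14 gene lists could not be tied to gene models, and the organ labels were not checked against marker genes.

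In the control columns 2354 gene models (5.41%) reached 50 RPKM in both roots and shoots, and 1187 of these (50.4%) reached 50 RPKM in leaves as well. Of the 2354, 91 stood at least 16 times above leaves in roots, 77 did so in shoots, and 73 (3.10%) did so in both. With the organs exchanged in the same rule, 108 gene models were high in control shoots and leaves and low in control roots. Only 2 were high in control roots and leaves and low in control shoots. These counts describe single columns and carry no test.

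The 73 gene models took a like share of all gene model RPKM in roots and shoots. They summed to 21391 RPKM in EBL roots and 23472 in control roots, which was 2.42% and 2.61% of the gene model total. In shoots they summed to 22768 RPKM with EBL and 20189 in control, or 2.46% and 2.36%. The 71 of them that were above 0 in control leaves summed to 703 RPKM in EBL leaves and 422 in control leaves, or 0.0560% and 0.0419%. The other 2 were listed at 0 in control leaves and at over 1000 RPKM in EBL leaves, and are described on their own below.

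Zm00001d023994 had the highest level. It stood at 1309 RPKM in EBL roots and 1978 in control roots, at 1792 in EBL shoots and 2476 in control shoots, and at 14.4 in EBL leaves and 23.9 in control leaves. Each of its EBL values was lower than its control value, by less than 2-fold. It was the 1 gene model of the 73 with lower EBL values in all 3 organs.

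Zm00001d012276 stood at 893 RPKM in EBL roots and 955 in control roots, at 1152 in EBL shoots and 930.5 in control shoots, and at 79.8 in EBL leaves and 40.1 in control leaves. Zm00001d051478 stood at 921 and 874 RPKM in EBL and control roots, at 1136 and 963 in EBL and control shoots, and at 38.5 and 18.9 in EBL and control leaves. These gene models had the highest EBL leaf values of the 71, and both leaf values were close to 2-fold higher with EBL (log2 0.98 and 0.99).

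Zm00001d025234 stood at 1076 RPKM in EBL roots and 629 in control roots, at 1139 in EBL shoots and 919 in control shoots, and at 24.4 in EBL leaves and 9.28 in control leaves. It was higher with EBL in each organ, and its log2 difference of 0.77 in roots was the largest positive one of the 73 there. Zm00001d043413 stood at 754 RPKM in EBL roots and 626 in control roots, at 829 in EBL shoots and 709 in control shoots, and at 1.34 in EBL leaves and 10.7 in control leaves. Its leaf value went the other way from its values in both axes.

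The remaining 3 of the 8 with the highest levels differed by less than 1.5-fold between treatments in every organ on the log2(RPKM + 1) scale. Zm00001d021433 stood at 661 and 564 RPKM in EBL and control roots, at 942 and 734 in EBL and control shoots, and at 9.997 and 10.2 in EBL and control leaves. Zm00001d002543 stood at 554 and 613 RPKM in EBL and control roots, at 976 and 746 in EBL and control shoots, and at 17.2 and 16.5 in EBL and control leaves. Zm00001d026015 stood at 664 and 674 RPKM in EBL and control roots, at 669 and 519.8 in EBL and control shoots, and at 16.6 and 10.9 in EBL and control leaves. In all 3 the shoot value was higher with EBL (log2 0.36, 0.39 and 0.36).

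**Figure D1:**
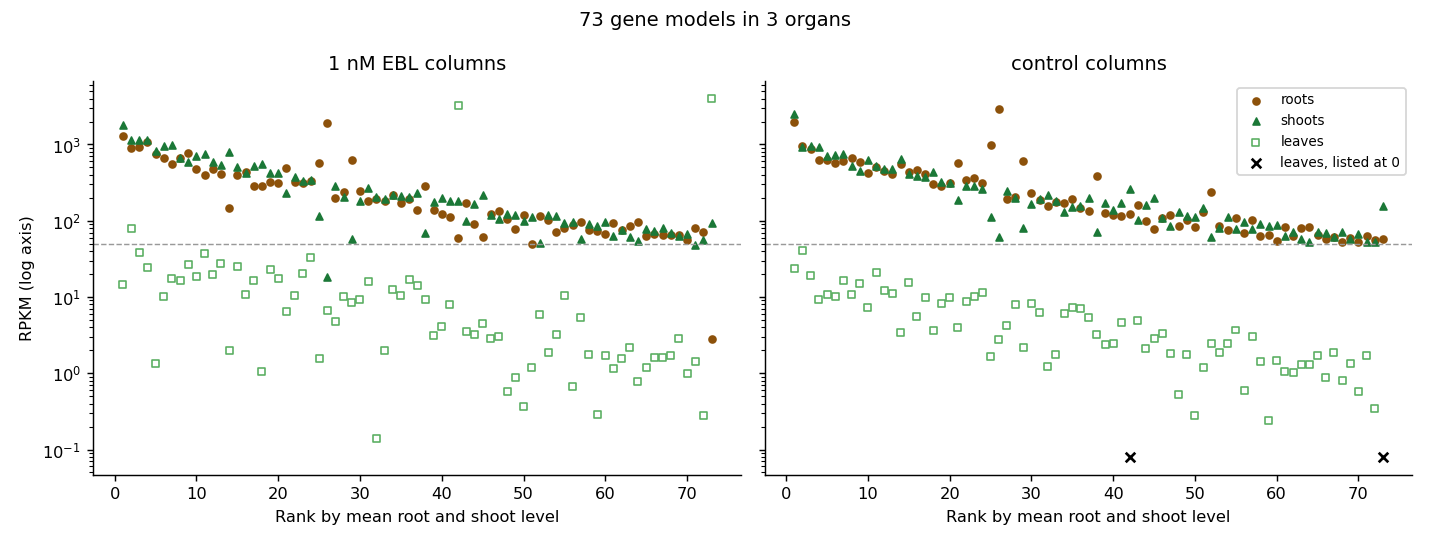
RPKM on a log axis of the 73 gene models in EBL columns (left) and control columns (right), ranked by the geometric mean of their 4 root and shoot values; circles are roots, triangles shoots, open squares leaves, crosses values listed at 0, and the dashed line is 50 RPKM. In control columns every leaf value lies far under the root and shoot values, as the rule required; in EBL columns 2 leaf values lie above 1000 RPKM.

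The other 65 gene models spread over a wide range. By the geometric mean of control roots and control shoots, 12 of the 73 reached 500 RPKM, 17 lay between 200 and 500, 22 between 100 and 200 and 22 between 50 and 100. The median of the 73 was 169 RPKM in EBL roots and 159 in control roots, and 182 in EBL shoots and 158 in control shoots. Over the 71 above 0 in control leaves the leaf median was 4.71 RPKM with EBL and 3.33 in control.

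Leaf transcripts of most of these gene models were low but listed above 0, and they were higher where the level in the axes was higher. Over the 71, 28 reached 5 RPKM in control leaves and 8 were under 1 RPKM there. The median leaf value was 1.59 RPKM with EBL and 1.31 in control for those with a control mean of roots and shoots of 50 to 100 RPKM. It was 4.15 and 2.86 RPKM at 100 to 200, 10.9 and 8.12 at 200 to 500, and 17.8 and 12.96 at 500 or more. As a percentage of the lower of roots and shoots, the leaf value had a median of 3.11% in EBL columns and 2.45% in control columns. Spearman's rho across the 71 gene models was 0.64 between EBL leaves and EBL shoots and 0.68 between EBL leaves and EBL roots. It was 0.80 and 0.78 in the control columns, where the rule itself bounds the leaf value by the root and shoot values. The points of each correlation come from single columns, and gene models are not replicates.

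The EBL columns hold the same measure in samples that did not choose the gene models. There, 49 of the 73 (67.1%) met the same rule, against 0.126% of all gene models, of which 55 met it. Those 55 were 2.31% of the 2385 gene models that reached 50 RPKM in both EBL roots and EBL shoots. The 49 were 89.1% of those 55. Of the 73, 69 reached 50 RPKM in both EBL roots and EBL shoots, and 66 stood at least 8 times above EBL leaves in both organs. When columns were scaled to each other by median ratios, which raised the leaf columns relative to the others, 26 of the 73 met the rule in the EBL columns. The 73 were still those chosen before scaling. The scaling shifted the control columns in the same way, by 1.40 in leaves, 0.82 in roots and 0.88 in shoots. How many of the 73 meet the rule in the scaled control columns was not counted, so the 26 do not measure a loss with EBL.

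Most of the 24 that missed the rule missed it on the leaf side. For 22 of them the fold over EBL leaves was under 16, and for 7 of these it was under 8. The 7 include the 2 listed at 0 in control leaves and 4 that were higher in roots than in shoots: Zm00001d047117 at 2.53 times, Zm00001d029859 at 6.21, Zm00001d031344 at 6.84 and Zm00001d048625 at 7.55. The last was Zm00001d006623 at 7.11 times, with 80.8 and 109 RPKM in EBL and control roots, 93.1 and 78.8 in EBL and control shoots, and 10.51 and 3.69 in EBL and control leaves. Under 50 RPKM in an EBL axis were 4 gene models, by a narrow margin in Zm00001d004309 (49.7 RPKM in EBL roots) and Zm00001d036351 (48.1 RPKM in EBL shoots). Several of these identifiers were singled out after their values were seen.

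Roots and shoots held most of the 73 at similar levels. In the EBL columns 48 of the 73 (65.8%) were within 1.5-fold between roots and shoots on the log2(RPKM + 1) scale, against 57.0% of all gene models compared. In the control columns 59 (80.8%) were, against 57.6%. The rule asked both control values to reach 50 RPKM, which limits how far they can differ. The median log2 ratio of roots to shoots was -0.21 with EBL and -0.08 in control over the 73. For 2281 other gene models with at least 50 RPKM in control roots and shoots it was 0.09 and 0.16. With EBL the 10th to 90th percentiles of the ratio were -0.86 to 0.76 in the 73 and -0.51 to 0.75 in the 2281. In control they were -0.56 to 0.61 and -0.38 to 0.81. Beside gene models of like level, the 73 thus did not stand out as more even between roots and shoots with EBL. In 59 of the 73 the same organ was the higher one in both treatments.

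At least 2-fold higher in roots than in shoots were 6 of the 73 in the EBL columns (8.22%), against 14.9% of all gene models compared. The latter include gene models under 50 RPKM in control roots or shoots, which the rule shut out. The lower share therefore does not show the 73 to be more even. The share past 2-fold was not counted in the 2281 of like level. Zm00001d047117 was the most uneven, at 1927 RPKM in EBL roots and 18.3 in EBL shoots, and at 2926 in control roots and 60.6 in control shoots. Its leaf values were 6.63 RPKM with EBL and 2.79 in control, so its shoot value with EBL was nearer to leaves than to roots. Zm00001d029859 had 623 RPKM in EBL roots and 58.2 in EBL shoots, and 606 in control roots and 80.7 in control shoots. Zm00001d031909 had 575 RPKM in EBL roots and 115 in EBL shoots, and 981 in control roots and 112 in control shoots. Its shoot value hardly differed between treatments, and its leaf value was 1.54 RPKM with EBL and 1.64 in control. Zm00001d031344 had 283 RPKM in EBL roots and 69.2 in EBL shoots, and 384 in control roots and 70.5 in control shoots. The other two of the 6 were Zm00001d030698, at 490 and 233 RPKM in EBL roots and shoots, and Zm00001d048625, at 115 and 51.6.

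At least 2-fold lower in roots than in shoots were 5 of the 73 in the EBL columns (6.85%), against 12.8% of all gene models. The same limit holds for this comparison, since all gene models include those of lower level. Zm00001d041645 had 145 RPKM in EBL roots and 793 in EBL shoots, but 558 in control roots and 651 in control shoots. Its control values were close to equal, so its place here rests on the EBL root value. Zm00001d034547 had 61.7 RPKM in EBL roots and 220 in EBL shoots, and 76.8 in control roots and 197 in control shoots, so it was uneven in both treatments. Zm00001d004309 had 49.7 RPKM in EBL roots and 111 in EBL shoots, and 131 in control roots and 145 in control shoots. The other two were Zm00001d046170 and Zm00001d038163, which were listed at 0 in control leaves; without these, 3 of 71 were lower in roots.

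**Figure D2:**
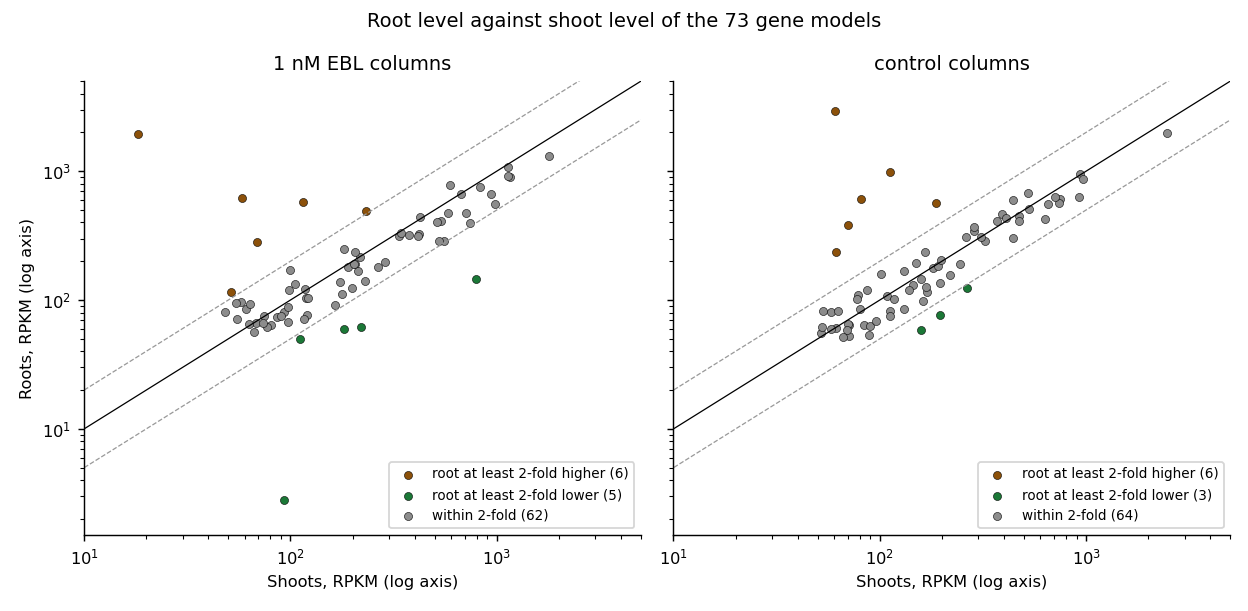
Root RPKM against shoot RPKM of the 73 gene models on log axes, EBL columns left and control columns right; the solid line marks equal values and the dashed lines a 2-fold difference in RPKM, and colours mark the side of 2-fold on the log2(RPKM + 1) scale. In EBL columns 6 gene models are at least 2-fold higher in roots and 5 at least 2-fold lower, against 6 and 3 in control columns.

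Zm00001d046170 and Zm00001d038163 met the rule through a control leaf value listed at 0, and stood among the abundant gene models of EBL leaves. Zm00001d046170 had 3954 RPKM in EBL leaves and was listed at 0 in control leaves. Its other values were 2.81 RPKM in EBL roots and 58.2 in control roots, and 92.7 in EBL shoots and 158 in control shoots. Zm00001d038163 had 3265 RPKM in EBL leaves and was listed at 0 in control leaves, with 60.03 and 123 in EBL and control roots and 182 and 264 in EBL and control shoots. Both were lower with EBL in roots and in shoots, and both had by far more leaf than axis transcript in the EBL columns, against the description of the set. An exact 0 can be a failed estimate, so no fold is given for leaves. Of all gene models, 5 were listed at 0 in control leaves with at least 50 RPKM in EBL leaves, and these were the 2 of them that reached 1000 RPKM. In the other direction, 2 were listed at 0 in EBL leaves with at least 50 RPKM in control leaves. In roots no gene model showed this in either direction (0 and 0). In shoots 1 was listed at 0 with EBL and 0 in control.

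By the median effect of EBL and the share that were higher, the 73 gene models as a set stood in roots where other gene models did. An effect of EBL here means log2 of the EBL value over the control value, with 1 added to both. In roots 43 of the 73 were higher with EBL (58.9%) and 30 lower, against 58.8% higher among all 25741 gene models compared. The median effect was 0.06, against 0.05 over all gene models. None of the 73 was at least 2-fold higher there with EBL, against 0.602% of all gene models.

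At least 2-fold lower in EBL roots were 5 of the 73 (6.85%), against 1.61% of all gene models. Zm00001d046170, given above, had the largest difference (-3.96). Zm00001d041645, at 145 RPKM in EBL roots and 558 in control roots, had an effect of -1.94, while its shoot value was higher with EBL (0.28). Zm00001d004309 had an effect of -1.38, at 49.7 RPKM in EBL roots and 131 in control roots, with 1.21 and 1.20 RPKM in EBL and control leaves. Zm00001d048625 had 115 RPKM in EBL roots and 236 in control roots (-1.04), and Zm00001d038163, given above, also lay just past 2-fold (-1.02). Without the 2 listed at 0 in control leaves, 3 of 71 were lower. Of the 55 gene models that meet the rule in the EBL columns, 1 was. The count thus depends on which columns chose the gene models.

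In shoots the differences were small and mostly upward. With EBL, 57 of the 73 were higher (78.1%) and 16 lower, against 53.7% higher among all 25599 gene models compared and 68.0% among the 2281 others with at least 50 RPKM in control roots and shoots. The median effect was 0.13 over the 73, 0.08 over those 2281 and 0.02 over all gene models. No gene model of the 73 was at least 2-fold higher, where 0.129% of all were. One (1.37%, against 0.434% of all gene models) was at least 2-fold lower: Zm00001d047117, at 18.3 RPKM in EBL shoots and 60.6 in control shoots (-1.67). With every column brought to one gene model total, the median over all gene models moved by -0.09 in shoots and -0.21 in leaves. The shoot median of the 73 was then 0.02, which was 0.09 above that of all gene models.

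The median difference in shoots was larger in the gene models with more transcript in leaves, which were also those with higher levels in the axes. A split at 5 RPKM in control leaves, chosen after the values were seen, gave 28 gene models at or above and 43 below. In shoots 27 of the 28 were higher with EBL, with a median effect of 0.34 and medians of 518 RPKM in EBL shoots and 400.1 in control shoots. The exception was Zm00001d023994 (-0.47). Of 1040 other gene models in the same range of control shoot values, 77.8% were higher and the median effect was 0.17. Only the ends of that range were matched, not the levels within it. Of the 43, 30 were higher in EBL shoots, with a median effect of 0.05 and medians of 97.6 RPKM with EBL and 89.1 in control. By the control mean of roots and shoots, the shoot median was 0.05 at 50 to 100 RPKM, 0.07 at 100 to 200, 0.30 at 200 to 500 and 0.31 at 500 or more. The level in leaves and the level in the axes cannot be told apart here, since the rule ties them. In roots the medians of the 28 and the 43 were 0.03 and 0.08.

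In leaves most of the gene models were higher with EBL, from a low level. Of the 71 above 0 in both leaf columns, 56 were higher (78.9%) and 15 lower, against 48.2% higher among all 25458 gene models compared. The median effect was 0.46, against -0.01 over all gene models. At least 2-fold higher were 13 of the 71 (18.3%), against 4.83% of all gene models, and at least 2-fold lower were 2 (2.82%), against 0.947%. With every column brought to one gene model total, 5 of the 71 were at least 2-fold higher and the median effect was 0.20, which was 0.42 above that of all gene models. The share of all gene models past 2-fold was not computed under that scaling, and the 4.83% from the columns as given does not apply to it.

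Zm00001d029859 had the largest upward effect, at 8.54 RPKM in EBL leaves and 2.202 in control leaves (1.57), and Zm00001d045268 the next, at 33.2 and 11.5 (1.45). In the axes Zm00001d045268 had 332 and 310.4 RPKM in EBL and control roots and 345 and 262 in EBL and control shoots, with effects of 0.10 and 0.40. The other 11 had effects between 1.01 and 1.41. They include Zm00001d025234, described above, and Zm00001d025381, at 23.2 RPKM in EBL leaves and 8.12 in control leaves. Zm00001d043413, at 1.34 RPKM in EBL leaves and 10.7 in control leaves, had the largest downward effect (-2.32). The other one past 2-fold downward was Zm00001d012714, at 1.04 and 3.58 RPKM in EBL and control leaves (-1.17). In the axes Zm00001d012714 had 286 and 305 RPKM in EBL and control roots and 555 and 439.6 in EBL and control shoots.

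**Figure D3:**
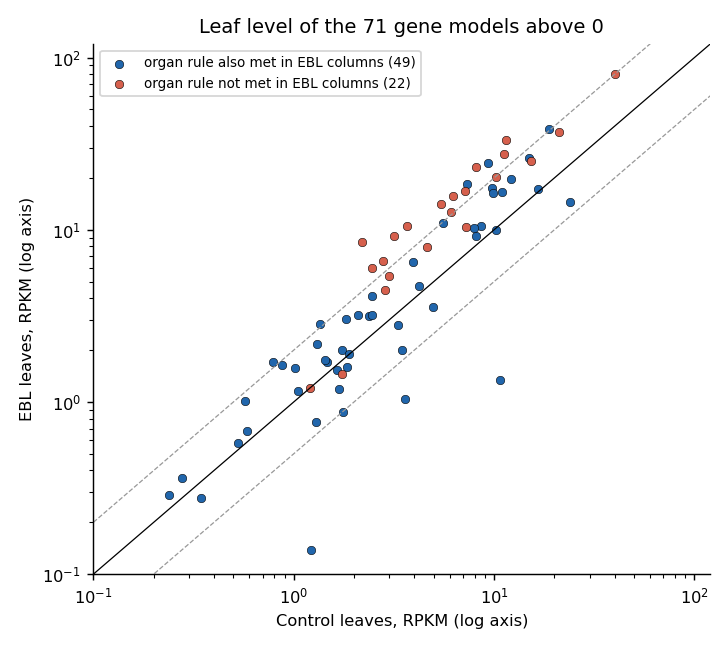
Leaf RPKM in EBL against leaf RPKM in control on log axes for the 71 gene models above 0 in both leaf columns; the solid line marks equal values, the dashed lines a 2-fold difference in RPKM, and colours mark the 49 that also met the organ rule in the EBL columns and the 22 that did not. Most points (56 of 71) lie above the solid line; the side on which the 22 lie follows largely from how they were chosen.

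The median leaf effect was larger in the gene models with more leaf transcript, which were also those with higher levels in the axes. Of the 28 with at least 5 RPKM in control leaves, 25 were higher in EBL leaves and 8 (28.6%) at least 2-fold higher. Their median effect was 0.78, with medians of 17.0 RPKM in EBL leaves and 10.03 in control leaves. The 10690 other gene models in the same range of control leaf values had a median effect of -0.09, with 42.2% higher and 4.51% at least 2-fold higher. Here too, only the ends of the range were matched. Of the 43 with less, 31 were higher in EBL leaves, with a median effect of 0.13, and 5 (11.6%) were at least 2-fold higher, against 4.83% of all gene models. By the control mean of roots and shoots, the leaf median was 0.13 at 50 to 100 RPKM and 0.47 at 100 to 200. It was 0.67 at 200 to 500 and 0.67 at 500 or more. As in shoots, the level in leaves and the level in the axes cannot be told apart. Adding 1 to both values shrinks ratios more at low levels. With pseudocounts of 0.1 and 2, chosen for this split after seeing the data, the medians were 0.82 and 0.75 in the 28 and 0.28 and 0.11 in the 43. Across the 71, Spearman's rho between the shoot effect and the leaf effect was 0.27, against 0.34 across 25003 gene models, and between the root effect and the leaf effect it was -0.12, against 0.19.

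The rule asked for a low control leaf value, so the leaf comparison is not independent of the choice. The size of the leaf difference depended on which columns chose the gene models. Chosen by the same rule in the EBL columns, the 54 with both leaf values above 0 had a median effect of 0.13. Of these, 37 were higher (68.5%), against 48.2% of all gene models. At least 2-fold higher were 2 (3.70%), no more than the 4.83% of all gene models. Chosen on the mean of the EBL and control columns, 63 gene models had a median of 0.26, with 5 (7.94%) at least 2-fold higher. The 49 that met the rule in both sets of columns had a median of 0.16, with 35 higher and 2 (4.08%) at least 2-fold higher. The 22 above 0 in control leaves that met it in control columns only had a median of 0.99, with 21 higher; a higher EBL leaf value is itself what takes a gene model out of the rule there, so this value follows from the split.

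Upward medians were also found among gene models 8 to 16 times above leaves. Among gene models with at least 50 RPKM in roots and shoots, those 8 to 16 times above leaves had a median leaf effect of 0.22 when classed by the EBL columns (71 gene models), 0.34 by the mean of both (69) and 0.38 by the control columns (68). At 4 to 8 times the medians were 0.006, 0.16 and 0.32, with 353, 347 and 347 gene models, and so depended on the columns used. At 2 to 4 times above leaves the medians were -0.01, -0.002 and 0.02, with 845, 821 and 727 gene models. The leaf difference was thus not limited to gene models past 16 times, and no difference between classes was tested.

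**Figure D4:**
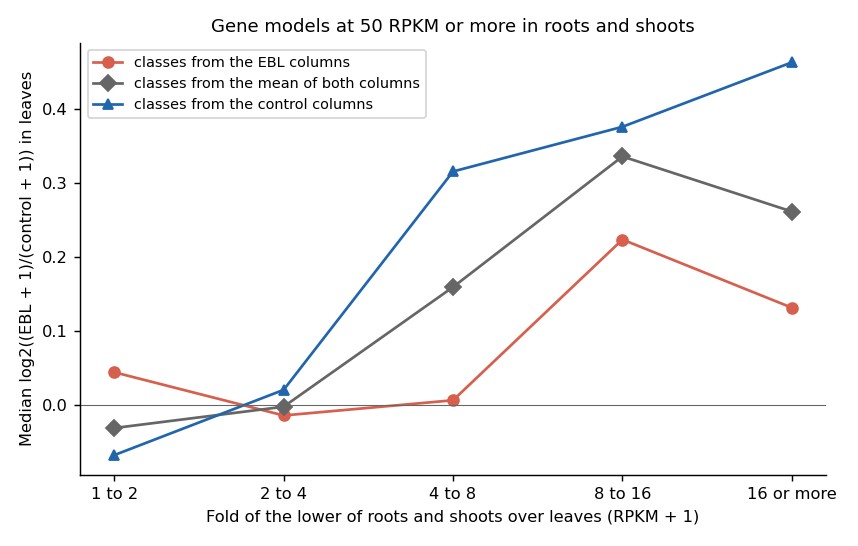
Median effect of EBL in leaves (log2 ratio of EBL to control, RPKM + 1) of gene models with at least 50 RPKM in roots and shoots, by the fold of the lower of both organs over leaves, with classes taken from the EBL columns, the mean of both, or the control columns. In the class of 16 or more the medians are 0.13, 0.26 and 0.46.

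**Figure D5:**
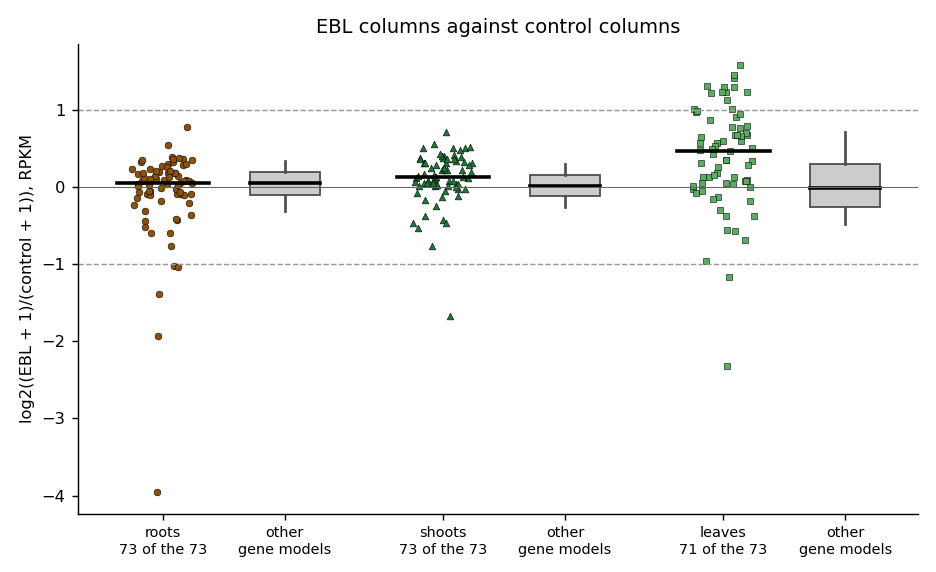
Effect of EBL (log2 ratio of EBL to control, RPKM + 1) in each organ; points are the gene models of the set with both values above 0, black bars are medians, and grey boxes show the 25th to 75th percentile of all other gene models, with lines to the 10th and 90th. Dashed lines mark 2-fold; the medians of the set are 0.06 in roots, 0.13 in shoots and 0.46 in leaves.

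Values at the edge of the rule were close on either side of it. Just inside were Zm00001d047117, at 16.3 times above leaves in control shoots, and Zm00001d021447, at 52.0 RPKM in control shoots. Just outside were Zm00001d003725, at 49.7 RPKM in control shoots, and Zm00001d023901, at 15.6 times above leaves in control roots. In the EBL columns Zm00001d003725 stood at 68.9 RPKM in roots, 61.4 in shoots and 4.73 in leaves.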

How the data were processed

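PolyA RNA was sequenced from 18 samples in 6 groups (stranded TruSeq kit; per the labels' protocols). The authors deposited 1 table of RPKM values, 1 column per group. The sources used here do not give how replicates were combined or whether the columns share a scaling. CASAVA 1.8, Trimmomatic 0.33, TopHat2 2.0.13, Cufflinks 2.2.1 and the build B73 RefGen_v4 are named, without roles, in the submitters' processing notes. The depth is unknown.

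The gene models, lists and rules were chosen with earlier results of these data known. The planned limma models need single libraries and were replaced by a rule of size, 2-fold on the log2(RPKM + 1) scale. Gene models were compared when both values were above 0 and 1 RPKM was reached in any of the 6 columns; all 73 pass that minimum because the rule requires 50 RPKM. Percentages of all gene models use the same conditions. Named were the 8 with the highest root and shoot level, per organ up to 2 with the largest effect each way at a mean of at least 5 RPKM, the 4 at each end of the ratio of roots to shoots, the 4 highest in EBL leaves, and 2 on each side of the threshold. The rule allowed 3 per direction and organ, but at most 2 for identifiers without a name. Other identifiers given above, such as Zm00001d012714 and Zm00001d006623, fall outside these rules and were named after their values were seen. Names were sought among RefSeq genes (Zm-B73-REFERENCE-NAM-5.0, another build), with 0 of 43484 gene models matched, so planned analyses of name classes, proteins, neighbours and promoters could not be made. Alternatives were pseudocounts of 0.1 and 2, 2 scalings, other thresholds (20 RPKM with 8 times, 100 RPKM), no minimum and membership by other columns. The calculation was checked on simulated data. Python 3.11.15 was used with matplotlib 3.10.9, scipy 1.17.1, pandas 2.3.3 and numpy 2.4.6.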

Additional observations from a re-analysis of the deposited data

Results flagged for a closer look

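The effect of EBL was past 2-fold in opposite directions in 2 organs for 2 of the gene models, and neither difference between organs was tested. Zm00001d047117 was lower in EBL shoots (18.3 RPKM, against 60.6 in control shoots) and higher in EBL leaves (6.63, against 2.79 in control leaves), so that the shoot effect minus the leaf effect was -2.68 (log2). Zm00001d048625 was lower in EBL roots (115 RPKM, against 236 in control roots) and higher in EBL leaves (5.96, against 2.46 in control leaves), so that the root effect minus the leaf effect was -2.05. Both leaf effects lay just past 2-fold (1.01 in each). With a pseudocount of 2, tried after seeing the data, they were 0.85 and 0.84, under 2-fold, and with 0.1 they were 1.22 and 1.24.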

How the results depend on the processing

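No paired analysis was possible because the table holds 1 value per group, and leaving out replicates was not run for the same reason; the alternatives for promoters and proteins were not run. Of 129 recomputed counts and medians, 89 stayed within 1.5 times (counts) or 0.1 (medians, log2, same sign). Dropping the minimum of 1 RPKM could move none, since the rule requires 50 RPKM, yet its values are among the 129. Counts were not divided by the number of gene models in a set. Where another threshold or other columns chose the set, a count can therefore move with set size alone. The 14 effects and ratios by which gene models were named kept their direction and their side of 2-fold in all 70 recomputations with other pseudocounts, scalings or no minimum. Those with no minimum could not differ from the main values. The cause of the moves below was not tested. The leaf median was 0.60 with a pseudocount of 0.1 and 0.34 with 2, where 1 was 2-fold lower in leaves. Scaled to the sum of gene models, 5 were 2-fold higher in leaves, with medians of 0.20 in leaves and 0.016 in shoots. Under median-ratio scaling 26 met the rule in EBL columns, the root median was -0.010, and 8 were 2-fold lower in roots than shoots, with a median ratio of -0.36.

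Chosen in the EBL columns, 1 was lower in roots and 0 in shoots, 2 were higher in leaves (median 0.13), and 2 were higher and 1 lower in roots than shoots. With 20 RPKM and 8 times (317 gene models), 8 were lower in roots, 3 lower in shoots and 33 of 315 higher in leaves (median 0.14). In roots against shoots 18 were higher and 11 lower (median 0.0094). In the main set 5 of 73 were lower in roots and 13 of 71 higher in leaves, so these counts rose while the shares fell. With 100 RPKM (43), 28 met the main rule of 50 RPKM and 16 times in EBL columns. In the main set 49 of 73 did, a like share of a larger set. With 100 RPKM, 3 were lower in roots and 0 in shoots (median 0.28), and 8 were higher in leaves (median 0.58). In roots against shoots 2 were higher and 3 lower (median -0.33). In alternatives added after the data were seen, leaving out the 2 listed at 0 gave 3 lower in roots and 3 lower in roots than shoots. Chosen on the mean of both columns (63), 2 were lower in roots and 0 in shoots, 5 were higher in leaves (median 0.26), and 2 were higher and 2 lower in roots than shoots.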

Other observations

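The EBL columns added 6 gene models to the rule that the control columns did not hold. Of these, 5 lay near it in control as well, among them Zm00001d012052, at 643 RPKM in EBL roots and 554 in control roots, 349 in EBL shoots and 316 in control shoots, and 19.3 in EBL leaves and 20.5 in control leaves. The other, Zm00001d010263, was listed at 0 in EBL leaves and at 121 RPKM in control leaves, with 145 and 112 in EBL and control roots and 118 and 88.2 in EBL and control shoots. It is thus the counterpart, with the treatments exchanged, of the 2 gene models listed at 0 in control leaves.

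Among the 73 identifiers, 2 were numbered within 5 of each other, Zm00001d002543 and Zm00001d002546. Zm00001d002546 stood at 441 and 469 RPKM in EBL and control roots, at 424 and 391 in EBL and control shoots, and at 10.9 and 5.54 in EBL and control leaves. Their distance on the genome was not analysed here. These identifiers were chosen after their values were seen.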
